A study of Mus musculus with 4 samples.

Results

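mmu-miR-690 and mmu-miR-706 (below miR-690 and miR-706) are 2 of the 795 mature mouse miRNA entries listed for exosomes of the colon carcinoma lines C26 and MC38. They were picked by name, because both stood much higher in the libraries of one exosome isolation kit in each line. C26 tumours are widely used to cause wasting in mice, and MC38 is a second mouse colon carcinoma line. Both lines were grown in medium freed of exosomes, and small RNA of the exosomes they shed was sequenced. For either line, one isolation used ExoQuick-TC, a polymer reagent that precipitates vesicles, and the other used the Wako capture kit, an ELISA format that binds vesicles to a coated surface. Each of the 4 combinations of line and kit has 1 library, so no value below has a replicate of its own combination, and nothing in the labels tells separate cultures from shared ones.

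A miRNA is cut from a folded hairpin transcript and loaded into an Argonaute protein. Bases 2 to 8, the seed, lead its pairing with messenger RNAs. A small RNA read is credited to a miRNA by sequence alone, so a fragment of another RNA with the same letters is listed under the same name. miR-690 has been studied as cargo of exosomes from mouse macrophages, where it was linked to insulin sensitivity. Neither miR-690 nor miR-706 carries the arm suffix that entries receive when both strands of a hairpin are catalogued, and no second strand of either hairpin is listed. Of the 795 entries, 90 have no arm in the name.

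Both mature sequences are shown because reads are assigned to these entries by their letters, which are searched for in other transcripts below. The origin of the reads was not tested. They are written 5′ to 3′ from RefSeq (GRCm38.p6), with the seed in capitals.
miR-690: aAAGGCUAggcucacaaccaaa
miR-706: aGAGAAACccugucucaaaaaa

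Both have 22 bases and are rich in A, with A at 10 bases of miR-690 and 11 of miR-706, against a median share of 22.7% over the 650 listed entries whose sequence was found in the RefSeq table. miR-690 ends in 3 A and miR-706 in 6 A. Only 6 of the 650 end in 3 or more A, and 2 in 6 or more. No other mature miRNA among the 1679 in the RefSeq table has the seed of either, and none of the other listed entries with a sequence among those 650 shares a run of 12 or more bases with them. Neither has a listed entry with identical values in all libraries, as would be seen if reads were credited to both.

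Mir690, the hairpin gene of miR-690, lies on chromosome 16 (28599935 to 28600043, minus strand, GRCm38). It is in an intron of Fgf12, on the strand of that gene, which codes for a modulator of voltage-gated sodium channels. Of the 6 annotated Fgf12 transcripts, 1 spans it. Mir706 lies on chromosome 6 (120034228 to 120034311, minus strand), in an intron of Wnk1 on the same strand. Wnk1 codes for a kinase that regulates ion transport, and 6 of its 26 transcripts span the hairpin. Neither hairpin overlaps an annotated exon of its host gene. The Mir690 hairpin is shown with the mature miRNA in capitals, at positions 83 to 104 of 109, because its other parts are matched to transcripts below.
Mir690: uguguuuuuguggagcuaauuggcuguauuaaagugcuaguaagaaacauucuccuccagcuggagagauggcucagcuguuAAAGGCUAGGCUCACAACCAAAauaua

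RNAfold gave this hairpin a minimum free energy of -29.0 kcal/mol, which is -0.27 per base, where the median of 997 mouse hairpins was -0.41. Only 5.62% of them folded more weakly per base. Without division by length, the median was -32.1 kcal/mol, close to the value of Mir690. In the predicted fold, 68.2% of the miR-690 bases were paired, against a median of 81.0% over 1622 mature strands. Of these strands, 208 had that share or a lower one.

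The first 16 bases of miR-706 (AGAGAAACCCUGUCUC, searched on both strands) were found in transcripts of 1801 of the 53248 GENCODE genes that are not miRNA genes, 3.38% of them, the highest number of all 650 entries. Of these, 940 carried it in the sense and 940 in the antisense orientation, so some carried both, and 721 of the former were protein-coding genes. The whole 22 bases were found in 450 genes, 208 of them in the sense orientation. The median entry had 0 such genes for its first 16 bases, 636 of 650 had 5 or fewer, and 9 had 100 or more. The same 16 bases lay in 28 of 32802 promoter windows (250 bases before to 50 after a start), or 0.0854%. Transcripts of structural RNAs (ribosomal, small nuclear, small nucleolar, mitochondrial transfer RNA, miscellaneous RNA and the like) numbered 3907. Among these, miR-706 was 1 of 11 entries with a match of at most 2 mismatches. Its match was exact and lay in 1 gene of the miscellaneous RNA class. A match only says that these letters occur there. B1 and B2 elements are short repeats copied in great number into mouse genes, and no repeat annotation was used here, so the matches were not assigned to a repeat family.

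For miR-690 the matches were fewer but still unusual. Its first 16 bases (AAAGGCUAGGCUCACA) were found in 13 genes in either orientation, the 13th highest of 650 entries. The genes with all 22 bases in the sense orientation were Fundc2, a mitochondrial outer membrane protein gene, the noncoding gene BC018473, and Gm42826. Zfp101 held them in the antisense orientation. The closest stretch in the structural RNAs had 6 mismatches, which is also the median of all entries. Outside the mature miRNA, the Mir690 hairpin held a stretch that is common in other transcripts. The 19 bases at positions 60 to 78 occurred in the sense orientation in 212 genes, 0.398% of those searched, whereas windows inside the mature miRNA matched at most 6.

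**Figure D1:**
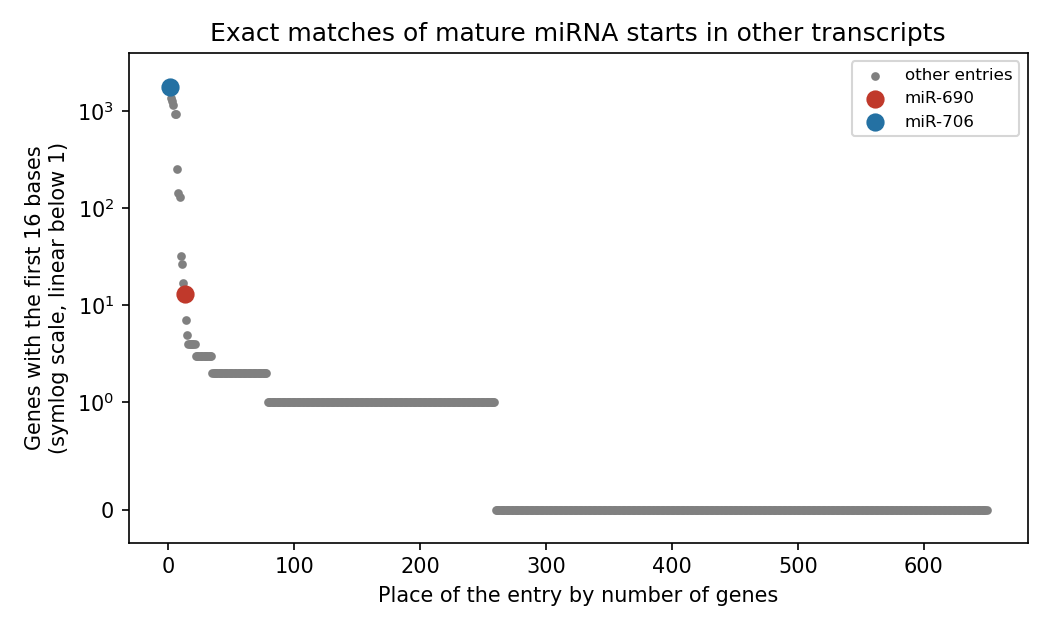
Number of genes, other than miRNA genes, with an exact match of an entry's first 16 bases in either orientation (symlog axis), for 650 listed entries in order of that number. miR-706 (blue) stands first with 1801 genes and miR-690 (red) 13th with 13, while 391 entries have 0.

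**Figure D2:**
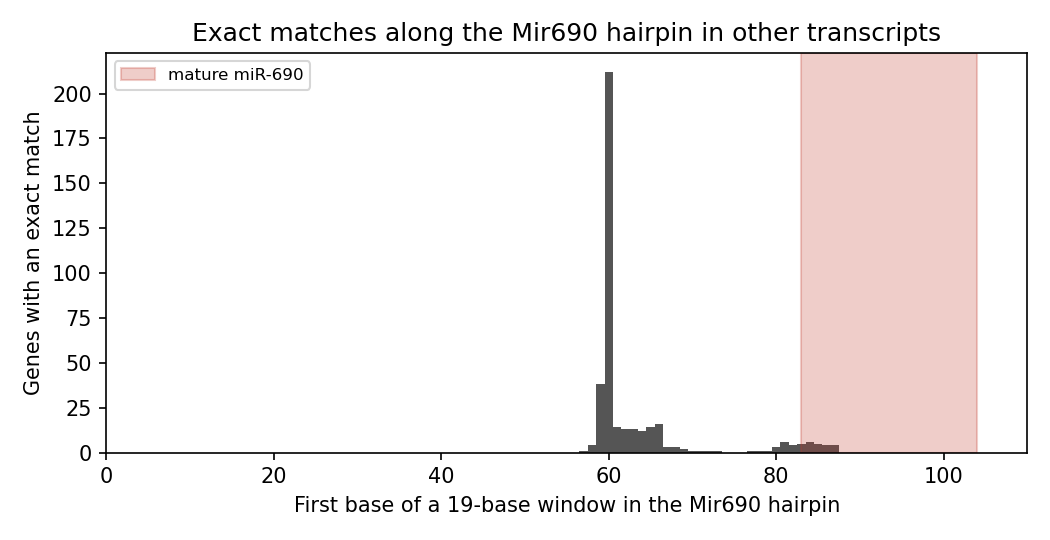
Number of genes whose transcripts hold each 19-base window of the Mir690 hairpin in the sense orientation, by the first base of the window, with the mature miRNA shaded. The window that starts at position 60 reaches 212 genes, and windows inside the mature miRNA reach at most 6.

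Levels are given as RPM, reads per library total in the usual scaling, recovered as described in the processing section. The totals that values were scaled by differed widely. They were 1356801 reads (C26) and 340643 reads (MC38) under ExoQuick, and 33692 reads (C26) and 3867 reads (MC38) under Wako. The upper limit that a count of 0 allows, 3 reads, was thus 2.21, 8.81, 89.0 and 776 RPM in turn. Reads summed over the listed entries slightly exceeded these totals, at 1434877, 347527, 34877 and 3953 in the same order. The totals are thus close to the reads credited to miRNAs and need not reflect the number of reads sequenced. Of 8 miRNAs typical of colon epithelium, only miR-192-5p and miR-194-5p have rows in the table used here, with a summed level of 64.6 to 1034 RPM. The 1034 RPM, in MC38 Wako, rests on 4 reads, and the other libraries lay at 64.6 to 148 RPM. All 4 white blood cell miRNAs and all 4 red cell and liver miRNAs looked for have rows, and of 3 muscle miRNAs 1 has.

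miR-690 stood at 80.3 RPM in C26 ExoQuick (109 reads, exact 95% interval 66.0 to 96.9) and 234.9 in MC38 ExoQuick (80 reads, 186 to 292). It stood at 30601 RPM in C26 Wako (1031 reads, 28787 to 32496) and at 25084 in MC38 Wako (97 reads, 20387 to 30516). The ExoQuick and Wako levels thus did not overlap, and the choice of the entry fixed that order. With the Wako kit, miR-690 was the 10th most abundant of 407 detected entries in C26 and the 7th, tied with miR-24-3p, of 188 in MC38, next to miR-214-3p in both. With ExoQuick it was 163rd of 687 and 99th of 475. It made up 3.06% of the C26 and 2.51% of the MC38 scaling total with Wako, against 0.00803% and 0.0235% with ExoQuick.

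miR-706 stood at 25.1 RPM in C26 ExoQuick (34 reads, 17.4 to 35.02) and 102.8 in MC38 ExoQuick (35 reads, 71.6 to 143). It stood at 2285 RPM in C26 Wako (77 reads, 1804 to 2856) and 3362 in MC38 Wako (13 reads, 1791 to 5742). Here too the kits did not overlap, by the choice of the entry. Higher levels with Wako in both lines were common among the 166 miRNAs that averaged 10 RPM or more with reads in all libraries. In order of the smaller within-line Wako over ExoQuick ratio, place 96 of these still had a ratio of 1.004. Membership in the 166 needs a read in MC38 Wako, worth 259 RPM, which favours miRNAs higher with Wako. That number also depends on the scaling of the libraries. miR-706 moved from place 239 of 687 to 57 of 407 in C26, and from 146 of 475 to 42 of 188 in MC38. Next to it stood miR-16-5p in C26 Wako and miR-143-3p in MC38 Wako. In MC38 Wako its level rests on 13 reads and was 4.33 times the level of 3 reads.

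**Figure D3:**
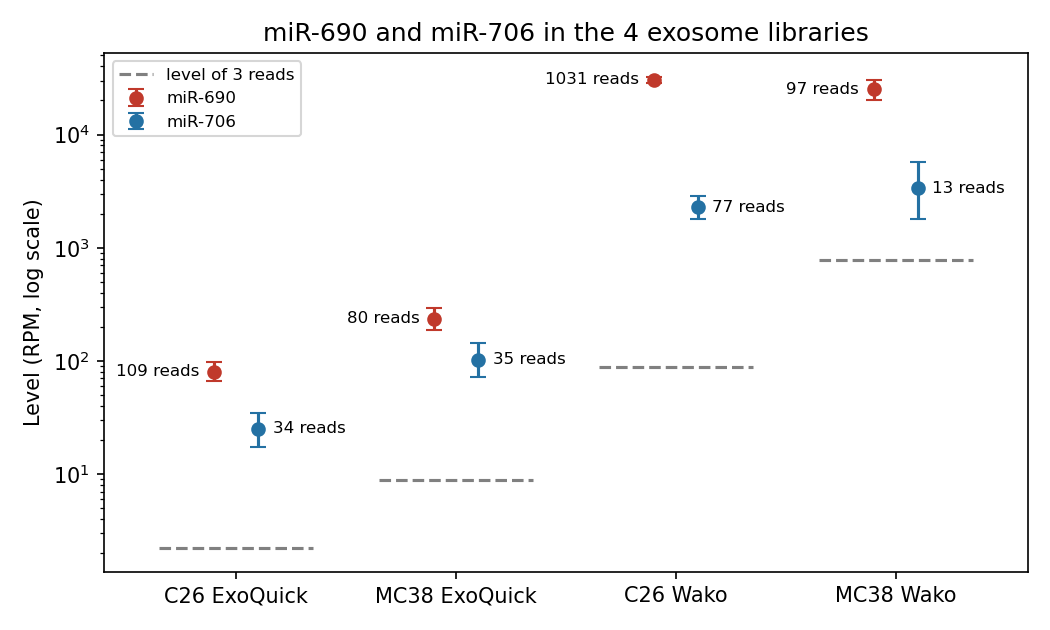
Levels of miR-690 and miR-706 in each library in RPM on a log scale, with exact 95% intervals for counting error and the number of reads. Dashed lines mark the level of 3 reads. Both miRNAs stand higher in the Wako libraries of both lines, where miR-690 reaches 30601 and 25084 RPM.

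**Figure D4:**
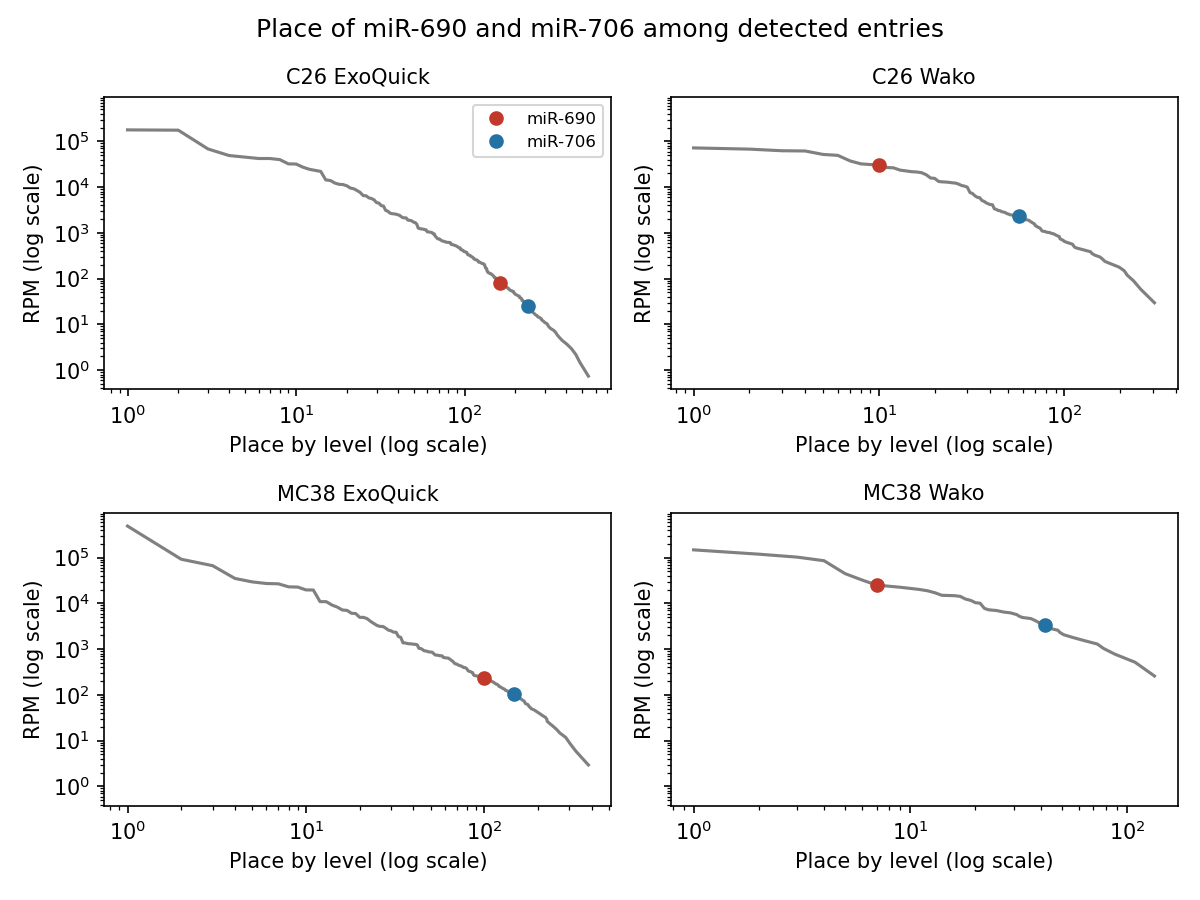
Level in RPM against place by level among detected entries in each library (both axes log), with miR-690 in red and miR-706 in blue. miR-690 moves from place 163 to 10 in C26 and from 99 to 7 in MC38 between ExoQuick and Wako.

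The Wako over ExoQuick ratio of miR-690 was 381 in C26 (exact 95% interval 312 to 468) and 107 in MC38 (78.6 to 145). For miR-706 it was 91.2 in C26 (60.2 to 141) and 32.7 in MC38 (15.9 to 63.4). These ratios chose the entries and are a description with no test. The intervals of the 2 lines do not overlap for miR-690, whose ratio was 3.57 times as large in C26, and overlap slightly for miR-706, 2.79 times as large in C26. As intervals and limits cover counting error only, and reads that carry no molecular identifiers can be copies of one molecule, neither gap was tested against a spread between cultures. On the log2(value + 1) scale the kit difference averaged over the lines was 7.64 for miR-690 (SD 1.29 over 2 lines) and 5.74 for miR-706 (SD 1.02).

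The scaling totals of the Wako libraries were also smaller than those with ExoQuick, 40.3-fold in C26 and 88.1-fold in MC38. Kit and total therefore cannot be told apart. Whether fewer reads were sequenced or fewer of them fell on miRNAs was not tested. In plain reads, miR-690 still had 9.46 times as many in C26 Wako as in C26 ExoQuick (1031 against 109) and 1.21 times as many in MC38 Wako as in MC38 ExoQuick (97 against 80). miR-706 had more reads with Wako in C26 (77 against 34) and fewer in MC38 (13 against 35). At the totals of the Wako libraries, the ExoQuick levels of miR-690 would give 2.71 reads in C26 and 0.908 in MC38. Those of miR-706 would give 0.844 and 0.397.

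miR-690 outnumbered miR-706 in all 4 libraries, by a factor that no scaling of whole libraries touches. With ExoQuick the ratio of their reads was 3.21 in C26 (exact 95% interval 2.16 to 4.86) and 2.29 in MC38 (1.52 to 3.505). With Wako it was 13.4 in C26 (10.6 to 17.1) and 7.46 in MC38 (4.16 to 14.5). The ratio was higher with Wako in both lines. It comes from the contrast that chose the entries and was not tested.

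For the 166 miRNAs that averaged 10 RPM or more and had reads in all 4 libraries, the median Wako over ExoQuick ratio was 1.57 in C26 and 4.43 in MC38. Requiring a read in MC38 Wako, where 1 read is worth 259 RPM, raises the MC38 median. Over all 390 tested, the median kit difference on the log2(value + 1) scale was 1.03 in C26, 0 in MC38 and 0.44 averaged over the lines. In both lines at least 10-fold higher with Wako were 22 of them (13.3%), miR-690 and miR-706 included by their choice. Other scalings of the libraries move the kit difference of all miRNAs nearly alike, so that places and distances within the 166 are fixed by construction except under quantile normalization. The median log2 difference of the 166 was 1.57 as deposited, 0.14 with median-ratio scaling and -0.06 with TMM scaling. Relative to that median, miR-690 lay 6.08 higher as deposited and 6.29 higher with quantile normalization, and miR-706 4.17 and 4.23 higher. By this difference, which also chose the entries, miR-690 was 1st of the 166 in both cases, and miR-706 was 4th as deposited and 7th with quantile normalization.

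In order of the smaller of the 2 within-line ratios, miR-3968 came first (117), followed by miR-690 (107), miR-451a (35.8), miR-877-3p (34.1) and miR-706 (32.7). miR-451a is a red cell miRNA cut by Argonaute2 without Dicer, and miR-877-3p comes from a mirtron, an intron that is itself a hairpin. The next 6 were miR-709 (26.9), which acts in the nucleus in mouse cells, miR-1981-3p (25.6), miR-326-5p (22.02), miR-351-5p (20.01), a mouse relative of miR-125, miR-3960 (19.6) and miR-25-5p (16.8). Of these neighbours, miR-351-5p and miR-25-5p had at least 4 reads in every library. miR-351-5p had 163 and 40 reads with ExoQuick and 81 and 14 with Wako (C26 and MC38), and its ratio in C26, 20.01 (15.1 to 26.3), lay below the interval of miR-706. In MC38 its ratio of 30.8 (15.5 to 57.9) was close to the 32.7 of miR-706. Each of the others had 1 to 4 reads in MC38 Wako.

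**Figure D5:**
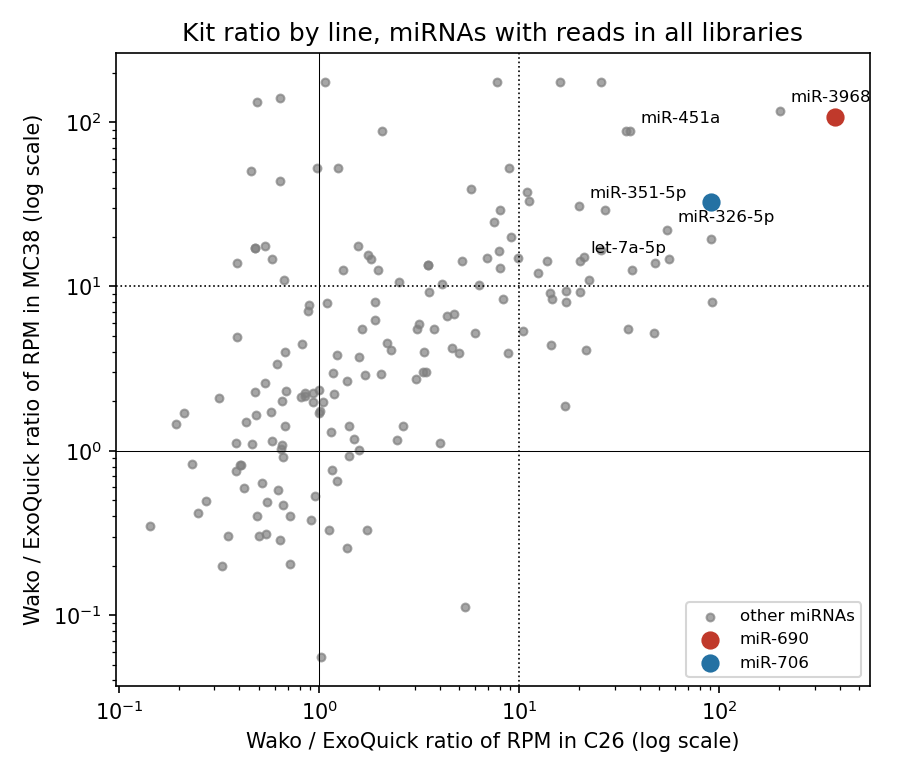
Wako over ExoQuick ratio of RPM in C26 (x) and MC38 (y), both on log axes, for the 166 miRNAs that averaged 10 RPM or more and had reads in all libraries; dotted lines mark 10-fold. miR-690 lies farthest right at 381 and 107, and miR-706 lies at 91.2 and 32.7, among the 22 past both dotted lines.

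The nearest profile to miR-690 over the 4 libraries, by Euclidean distance of centred log2(value + 1) among the 390 miRNAs averaging 10 RPM or more, was that of miR-3968 (distance 1.29), and the second was miR-706 (2.02), where the median over all was 8.46. miR-2137, miR-877-3p and miR-326-5p followed at 2.39, 2.64 and 2.66. miR-3968 had 3 and 15 reads in C26 ExoQuick and C26 Wako, a ratio of 201 (exact 95% interval 57.0 to 1085), and 3 and 4 in MC38, a ratio of 117 (19.9 to 802). The 5 profiles nearest to miR-706 were miR-3960 (0.854), which promotes osteoblast differentiation in mouse, miR-326-5p (0.865), miR-2137 (1.12), miR-3968 (1.30) and miR-709 (1.45), against a median of 6.998. Apart from miR-706, the nearest entries held 15 reads or fewer in every library, so their likeness rests on few reads. Both miR-690 and miR-706 were chosen for the same kit difference in these libraries. Their closeness was therefore largely set by the choice and was not tested. Many of the 390 have 0 reads in MC38 Wako, which widens distances on this scale and so the medians.

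Other entries of like name did not share the pattern throughout. Of 12 further listed entries numbered miR-680 to miR-720, 6 averaged 10 RPM or more and 2 had reads in all 4 libraries. Of those 2, miR-709 was over 10-fold higher with Wako in both lines, on 4 and 1 Wako reads, and miR-700-3p had a ratio of 0.463 in C26 and 1.10 in MC38, on 1 Wako read in each line. Of the 88 other entries with no arm in the name, 14 had reads in all 4 libraries, and 4 of these 14 (28.6%) were at least 10-fold higher with Wako in both lines, with median ratios of 6.66 in C26 and 6.04 in MC38. Of the 150 entries with an arm in the name and reads in all libraries, 16 were (10.7%), with medians of 1.35 and 4.09. The 4 with no arm were miR-3968, miR-451a, miR-709 and miR-3960. They had 4, 1, 1 and 2 reads in MC38 Wako, so the 28.6% rests on few reads.

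The white blood cell miRNAs looked for summed to 4656 and 6114 RPM in C26 (ExoQuick and Wako) and to 79.3 and 6465 RPM in MC38. Of the 4, miR-150-5p, a lymphocyte miRNA, had 16 reads in C26 ExoQuick and 55 in C26 Wako (ratio 138), and in MC38 0 and 3. miR-223-3p, of myeloid cells, had 10 and 33 reads in C26 (ratio 133), and 7 and 0 in MC38. miR-142a-5p, found in all white blood cells, gave most of the C26 ExoQuick sum and was lower with Wako in C26, with 6219 and 98 reads (ratio 0.635), and higher in MC38, with 12 and 19 reads (ratio 139). miR-142a-3p had 72 and 20 reads in C26 (ratio 11.2), and 8 and 3 in MC38 (ratio 33.03). The red cell and liver miRNAs summed to 635 and 1098 RPM in C26 and 787 and 1034 in MC38 (ExoQuick and Wako), and their members differed in direction. miR-122-5p of the liver was lower with Wako, with 561 and 2 reads in C26 (ratio 0.144) and 254 and 1 in MC38 (ratio 0.347), while miR-451a was higher (35.8 and 88.1) on 8 Wako reads in C26 and 1 in MC38. miR-486a-5p had ratios of 3.48 and 13.6, and miR-144-3p was at 0 reads in both MC38 libraries. Their part in the levels of miR-690 and miR-706 was not tested.

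The difference between the lines was not used to choose the entries and was tested in limma over all 390 miRNAs with kit as a second term. Neither miR-690 nor miR-706 passed. For C26 against MC38 the log2 difference of miR-690 was -0.62 (SE 0.89, 95% interval -2.36 to 1.11, adjusted p = 0.807), and that of miR-706 was -1.27 (SE 1.24, -3.70 to 1.15, adjusted p = 0.711). Over all 390, 13 miRNAs passed (3.33%), 11 of them higher in C26 (2.82%) and 2 higher in MC38 (0.513%), while 0 of the 2 entries described here did. The intervals reach beyond a log2 of 2 in one direction, so that differences of that size are not shown to be absent. The median line difference was 1.85 over the 390, for many of which it depends on the pseudocount because MC38 Wako has 0 reads, and 0.09 over the 166 miRNAs with reads in all libraries.

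Within ExoQuick both entries were higher in MC38, miR-690 by 2.92-fold (exact 95% interval 2.16 to 3.94) and miR-706 by 4.10-fold (2.48 to 6.78), from 2 libraries with no replicate check. Within Wako, miR-690 was 0.82-fold in MC38 relative to C26 (0.659 to 1.01), and miR-706 1.47-fold (0.7495 to 2.67), and both intervals hold 1. The sign of the fitted values depends on 2 of the 4 libraries. Without C26 ExoQuick, and with no kit term as 3 libraries allow none beside a residual, the log2 values were 3.65 and 1.95 for miR-690 and miR-706, and without MC38 Wako 2.74 and 1.23, the opposite sign. Without C26 Wako they were -4.90 and -4.50, and without MC38 ExoQuick -3.99 and -3.78, the same sign. The kits are then unequally divided between the lines, so that such a fit mixes the kit difference into the line difference.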

How the data were processed

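Small RNA of exosomes was sequenced on an Illumina HiSeq platform, per the labels. The authors deposited 1 normalized signal value per mature miRNA and library. DESeq2 is listed in the submitters' processing notes, with no version. Aligner, build and miRBase release: not given in the sources used here. Per column, 100.0% of nonzero deposited values lay within 0.006 of a whole multiple of 1 step, and each step was what 1 read is worth in a whole-number total. Values were therefore read as RPM, and whole reads were recovered.

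The line test was limma 3.58.1 (R 4.3.3), two-sided, on log2(value + 1) with a trend of variance on mean, for miRNAs averaging 10 or more. Line and kit were additive terms, with Benjamini-Hochberg adjusted p under 0.05 as threshold. It leaves 1 residual degree of freedom, and the prior degrees of freedom were infinite, so errors come from the trend of all miRNAs. With 1 library per line and kit, the residual is the part of the line difference that changes with the kit. The p-values are set against this part as seen over all miRNAs, and it may be technical. They measure no spread between replicate libraries or cultures. In 10 simulations of the line comparison with 390 miRNAs, a true log2 of 2 was called for 40.4% of miRNAs averaging 1000 or more. A true log2 of 4 was called for 95.6%, and no change for 2.65%. Below a mean of 1000 these shares were 2.98%, 16.3% and 0.148%. The simulated counts had a dispersion of 0.3 and no difference between kits. miR-690 and miR-706 differ strongly between kits, so the shares do not give the power for them. Alternatives included edgeR 4.0.16 and DESeq2 1.42.0 on recovered reads. Intervals are exact (Clopper-Pearson, scipy 1.17.1).

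Sequences came from RefSeq (GRCm38.p6), where 650 of 795 names matched, transcripts and annotation from GENCODE M21 (GRCm38), with miRNA genes left out of the search, and folds from RNAfold 2.7.2. The entries and lists were chosen with earlier results of these data known. Neighbours were named by a rule: for each entry the 5 nearest profiles, and the 6 that follow by the smaller within-line kit ratio.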

Additional observations from a re-analysis of the deposited data

Results flagged for a closer look

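The line difference of miR-690 had opposite signs under the kits. As C26 minus MC38 on the log2(value + 1) scale, it was -1.54 with ExoQuick (109 and 80 reads) and 0.29 with Wako (1031 and 97 reads). Each kit has 1 library per line, so the difference between these values was not tested. For miR-706 the values were -1.99 and -0.56, of the same sign.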

How the results depend on the processing

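The line differences of miR-690 and miR-706 passed in none of the 18 alternatives run for each (adjusted p 0.631 to 0.98 and 0.474 to 0.98). With all 4 libraries they ran from -0.99 to -0.13 and from -1.67 to -0.43. Leaving out 1 library, which also drops the kit term, gave -4.90 to 3.65 for miR-690 and -4.50 to 1.95 for miR-706. The positive values were 3.65 and 1.95 without C26 ExoQuick, and 2.74 and 1.23 without MC38 Wako. The count of miRNAs past the line threshold, 13, became 8 with no filter, 8 with robust variances, 6 with TMM scaling and 21 in DESeq2. It was 0 with median-ratio scaling, no kit term or no trend in limma (26, 25 and 46 at unadjusted p under 0.05), and 19 in edgeR. Without 1 library it ran from 0 to 58 (76 and 43 at unadjusted p under 0.05 where it was 0, without MC38 ExoQuick and MC38 Wako).

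The log2 kit differences of miR-690 and miR-706, 7.64 and 5.74, kept their direction in all 13 alternatives. As this contrast chose the entries, that direction was largely fixed by the choice. Changes of the filter cannot alter the differences, and leaving out 1 library only gives the value of the other line. The differences were 6.10 and 3.24 with the worth of 1 MC38 Wako read as pseudocount. They were 6.21 and 4.31 with median-ratio scaling, and 6.01 and 4.11 with TMM scaling. That of miR-706 was 4.53 with quantile normalization. Within 1 line they were 6.73 to 8.56 and 5.02 to 6.46. The 22 miRNAs at least 10-fold higher with Wako in both lines became 5, 3 and 7 with median-ratio, TMM and quantile scaling. The cause was not tested. A small total limits MC38 Wako most, where a single read is worth 259 RPM.

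Pairing by replicate number was not possible because the groups share only 1 such number. The kit term of the line test already pairs the libraries by kit, with 2 pairs and 1 residual degree of freedom.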

Other observations

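Of the entries whose first 16 bases occur in many genes, few had reads in all libraries. Beside miR-706, 8 entries had such matches in 100 or more genes, a list made after the matches were counted, and 3 of them had reads in all libraries. Of these 3, 0 were at least 10-fold higher with Wako in both lines, where 13.3% of the 166 miRNAs with reads in all libraries were. The 3 are too few to tell 0 from that share. Their median ratio was 35.2 in C26 and 5.18 in MC38, against 1.57 and 4.43 over the 166. miR-3473b had ratios of 47.0 in C26 and 5.18 in MC38, on 14 and 1 Wako reads. miR-3473e had 35.2 and 5.51, on 7 and 1. The upper limits of these MC38 ratios, 33.1 and 35.4, exceed 10. miR-574-5p had 0.401 and 0.823, on 23 and 6. The others lacked reads in at least 1 library. In C26, ExoQuick and Wako had 3 and 4 reads of miR-3473a (ratio 53.7), and 2 and 1 of miR-7667-5p (ratio 20.1, 0.341 to 387). They had 0 and 3 of miR-1195, 0 and 5 of miR-1946b, and 2 and 0 of miR-3470b. In MC38, miR-7667-5p had 0 and 3 reads, a ratio with a lower limit of 36.4. There miR-3473a had 1 and 0, miR-1195 and miR-1946b each 2 and 0, and miR-3470b 0 and 0.

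Of the 4 other entries whose mature sequence ends in 3 or more A, none had a read in MC38 Wako, where 3 reads are worth 776 RPM. Of these, miR-542-3p stood at 26.5 RPM in C26 ExoQuick (36 reads) and 89.0 in C26 Wako (3 reads).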
